A study of Mus musculus with 79 samples.

Results

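The genes described here encode 8 enzyme subunits of the tricarboxylic acid cycle (Cs, Idh3a, Idh3b, Idh3g, Idh2, Ogdh, Sucla2 and Mdh2) and pyruvate carboxylase (Pcx). They were chosen by name, and all 9 were measured in both knockouts, among 14253 genes listed for RORA and 12952 for PER2. RNA was sequenced from mouse muscle, without the muscle being named, in 18 RORA MKO and 18 RORA CTRL libraries and in 24 PER2 MKO and 19 PER2 CTRL libraries. MKO is a muscle-specific knockout and CTRL a control that the labels give as WT. What drove the deletion in muscle is not given in the sources used here. Each genotype had 3 or 4 mice, the replicates of the study's design, at each zeitgeber time (ZT, hours after lights on) of 0, 4, 8, 12, 16 and 20 h. Each ZT had its own mice, so time of day and differences between the mice of a ZT cannot be told apart.

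The tricarboxylic acid cycle in the mitochondrial matrix oxidizes acetyl groups from sugar, fat and amino acids and passes the electrons to the respiratory chain, and working muscle depends on it for ATP. Citrate synthase feeds acetyl-CoA into the cycle by joining it to oxaloacetate. Pyruvate carboxylase makes new oxaloacetate from pyruvate and so refills the cycle, and in liver and fat cells it also serves glucose and lipid synthesis. RORα (gene Rora) is a receptor of the nuclear family that binds DNA at AGGTCA motifs, and PER2 is a clock repressor that acts on the CLOCK and BMAL1 pair bound at CACGTG motifs. The comparisons ask what loss of either factor does to these enzymes over the day.

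All values rest on 12 tables of the authors' comparisons, 1 per knockout and ZT, and the depth of the libraries is unknown. RORA fold changes are MKO over CTRL. The direction of the PER2 fold changes is stated neither in the file headers nor in the labels, so each is given by its deposited sign alone. A call at a ZT means an adjusted p under 0.05 in the authors' deposited table. Unless said otherwise, a mean is that of the 6 log2 fold changes of a set ± SD over the 6 ZT (n = 6 ZT), and that SD covers time of day as well as sampling error. Rora, in the authors' deposited tables, was called lower in RORA MKO at 6 of 6 ZT, with log2 fold changes between -1.96 and -1.51. Per2 in the authors' deposited PER2 tables ran between -0.16 and 0.70 and was called at ZT12 alone, with a positive value. Its mean over the 6 ZT was 0.37 ± 0.29 and passed with a positive sign (Stouffer's method, adjusted p = 0.000451). The 7 skeletal muscle marker genes had mean normalized counts of 16154 to 792710 in the RORA set, with Myh4 highest. The samples are bulk tissue, so fewer cells of a type and less RNA per cell cannot be told apart.

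The promoters of 8 of the 9 members were found in RefSeq (GRCm38.p6), as windows of 300 bases from 250 before to 50 after each listed start, 14 windows in all. The 4 windows shown each hold a motif of the factors studied and belong to the members with the largest fall (Pcx), the largest value at ZT4 (Sucla2) and both motifs in 1 window (Ogdh). They are read 5′ to 3′ on the + strand, and capitals mark AGGTCA on either strand (TGACCT where it lies on the reverse) and CACGTG.
Pcx, upstream start, chr19:4510222-4510521: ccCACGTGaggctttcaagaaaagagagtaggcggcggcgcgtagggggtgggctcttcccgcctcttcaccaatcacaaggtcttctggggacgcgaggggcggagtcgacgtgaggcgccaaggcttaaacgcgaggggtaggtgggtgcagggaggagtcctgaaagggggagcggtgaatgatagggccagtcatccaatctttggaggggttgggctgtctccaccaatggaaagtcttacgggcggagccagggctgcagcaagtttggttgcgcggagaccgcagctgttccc
Pcx, downstream start, chr19:4594069-4594368: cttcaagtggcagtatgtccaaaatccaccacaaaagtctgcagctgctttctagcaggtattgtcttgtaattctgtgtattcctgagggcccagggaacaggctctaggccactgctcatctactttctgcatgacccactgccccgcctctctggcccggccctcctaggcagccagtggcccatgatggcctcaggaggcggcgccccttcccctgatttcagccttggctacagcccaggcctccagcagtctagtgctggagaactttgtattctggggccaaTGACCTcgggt
Sucla2, chr14:73552536-73552835: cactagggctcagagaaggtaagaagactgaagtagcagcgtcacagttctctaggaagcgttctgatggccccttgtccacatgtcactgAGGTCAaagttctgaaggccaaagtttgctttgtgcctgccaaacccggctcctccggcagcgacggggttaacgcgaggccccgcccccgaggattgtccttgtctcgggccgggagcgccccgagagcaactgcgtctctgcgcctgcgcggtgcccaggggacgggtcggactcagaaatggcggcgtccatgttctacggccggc
Ogdh, 1 of 6 listed starts, chr11:6291920-6292219: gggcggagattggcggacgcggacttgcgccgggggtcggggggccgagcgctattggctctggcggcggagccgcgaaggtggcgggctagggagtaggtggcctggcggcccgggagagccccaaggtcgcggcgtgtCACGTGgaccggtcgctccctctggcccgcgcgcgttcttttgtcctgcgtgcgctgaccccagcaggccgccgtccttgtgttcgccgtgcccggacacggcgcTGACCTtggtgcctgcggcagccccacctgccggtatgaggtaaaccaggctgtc
The upstream Pcx window held CACGTG at position 3 and the downstream one AGGTCA, on the reverse strand, at position 290. The Sucla2 window held AGGTCA at position 92. The Ogdh window held CACGTG at position 141 and AGGTCA, extended to AAGGTCA, at position 246 on the reverse strand. Idh3g had AGGTCA at position 265 on the reverse strand of its window, and the windows of Cs, Idh2, Idh3b and Mdh2 held neither motif. Searched on both strands over 32851 promoter windows of this length, AGGTCA was present in 16.3%, AAGGTCA, which contains it, in 4.72%, and CACGTG in 7.15%. TAGGTCA, another extension of AGGTCA that was searched, was present in 2.61% of these windows and in no window of the members. A match describes letters and not binding.

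Over the 6 ZT, 7 of the 9 members were higher in RORA MKO than in CTRL (adjusted p under 0.05), 1 was lower and 1 did not pass. Of all genes in the RORA set 18.9% were called higher and 19.3% lower by this test. The 7 higher members were Cs, Idh3a, Idh3b, Idh3g, Ogdh, Sucla2 and Mdh2, and the lower one was Pcx. Their changes were small for the enzymes of the cycle, between 9.44% and 24.3% above CTRL, and Pcx fell by 32.1%. The median of the 9 means was 0.18, against 0.004 for all genes. At ZT0 and ZT8, 8 members were called higher, against 14.8% and 13.7% of genes. At ZT4, ZT12, ZT16 and ZT20 it was 7 members, against 14.8%, 11%, 10.4% and 16.6%. Pcx was the 1 member called lower at each ZT, against 13.4%, 14.2%, 14.1%, 11.1%, 10.3% and 15.6% of genes from ZT0 to ZT20. The 8 members other than Idh2 were called in the same direction at each of the 6 ZT, something seen for 3.95% of genes in the higher direction and 4.69% in the lower.

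**Figure D1:**
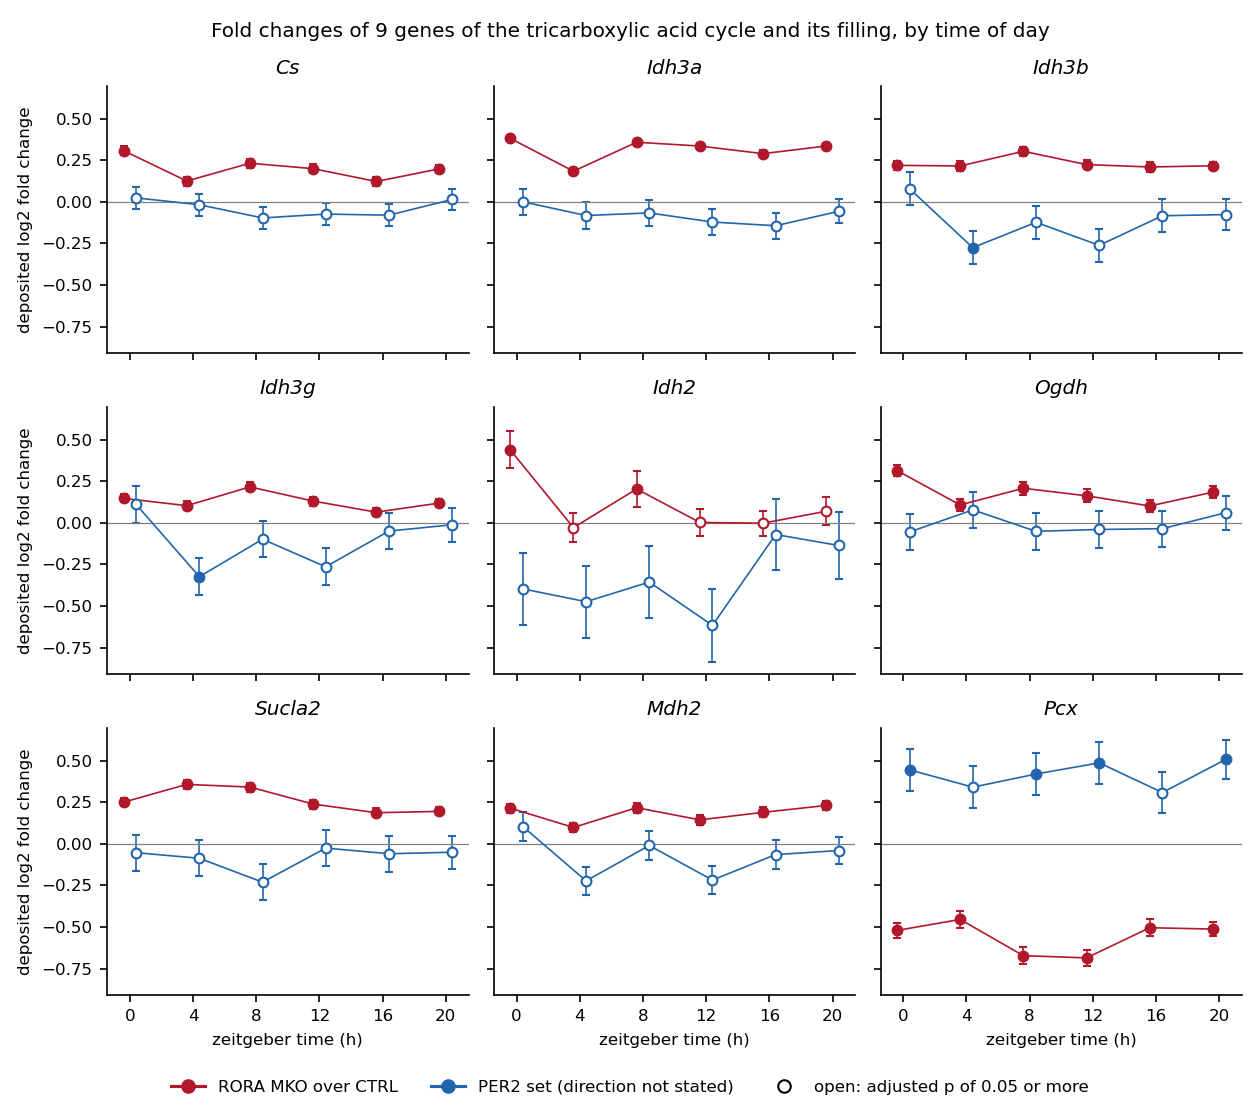
Deposited log2 fold change of each of the 9 members at 6 zeitgeber times, with RORA MKO over CTRL in red (bars: deposited error) and the PER2 set in blue (bars: error derived from the likelihood ratio); filled points had a deposited adjusted p under 0.05. The red points of Pcx lie between -0.69 and -0.45 and the blue ones between 0.31 and 0.51, whereas the red points of Cs, Idh3a, Idh3b, Idh3g, Ogdh, Sucla2 and Mdh2 are all above 0.

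Cs, citrate synthase, catalyses the entry step of the cycle. Its log2 fold changes in the authors' deposited RORA tables were 0.31, 0.13, 0.23, 0.20, 0.12 and 0.20 at ZT0, ZT4, ZT8, ZT12, ZT16 and ZT20. All 6 were positive, with the highest at ZT0, at 0.31 with a deposited error of 0.02, and the lowest values at ZT4 and ZT16. The mean was 0.20 ± 0.07 (weighted mean over ZT, adjusted p = 7.28e-76). The p-value beside a RORA mean is that of the weighted mean and rests on the deposited errors, not on the SD over ZT. For Cs, random effects gave an adjusted p of 1.12e-10, and limma with the spread over ZT as error gave 0.00184. Among the members that passed, limma values ran from 2.66e-05 for Pcx to 0.00566 for Idh3g.

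The NAD-dependent isocitrate dehydrogenase is built from the catalytic subunit IDH3A and the subunits IDH3B and IDH3G, and all 3 of their genes were higher in RORA MKO. Idh3a stood at 0.38, 0.18, 0.36, 0.34, 0.29 and 0.34 from ZT0 to ZT20 in the authors' deposited tables, with a mean of 0.31 ± 0.07 that exceeded those of 96.4% of genes. Idh3b, at 0.22, 0.22, 0.30, 0.22, 0.21 and 0.22 in the authors' deposited tables, was the most even of the members, with a mean of 0.23 ± 0.04 (adjusted p = 2.14e-93). Idh3g was the least changed of the trio, at 0.15, 0.10, 0.22, 0.13, 0.06 and 0.12 in the authors' deposited tables, with a mean of 0.13 ± 0.05 (adjusted p = 1.54e-33). Thus the order of the 3 subunits was Idh3a, Idh3b, Idh3g. Idh3a exceeded Idh3g at 6 of 6 ZT, by 0.18 ± 0.06 on the log2 scale, and Idh3b at 5 of 6, by 0.08 ± 0.07. The difference between Idh3a and Idh3b was about the size of its spread over ZT, and neither difference was tested. Idh3b shares exon sequence with Nop56 on the opposite strand (GENCODE M21), and whether the authors' counting used strand is not given in the sources used here. Nop56, a ribosomal RNA processing factor, had a RORA mean of -0.06 ± 0.03, the opposite sign to Idh3b.

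Idh2, the NADP-dependent isocitrate dehydrogenase of the matrix, makes NADPH and acts apart from the IDH3 complex. It stood at 0.44, -0.03, 0.20, 0.002, -0.002 and 0.07 from ZT0 to ZT20 in the authors' deposited RORA tables. Only ZT0 (adjusted p = 6.95e-06) and ZT8 (adjusted p = 0.0347) were called in the authors' deposited tables, where 14.8% and 13.7% of genes were called positive. Its mean was 0.11 ± 0.18. The weighted mean over ZT, 0.08 with an error of 0.04, did not pass (adjusted p = 0.0817). The deposited errors of Idh2, 0.08 to 0.11, were above those of the other members. By Stouffer's method, which counts each ZT alike and takes z from the deposited p, Idh2 passed (adjusted p = 0.00213). In the RORA set, fold changes over their errors were 0.795 times that z (median). Which of these differences brought the pass was not tested. The weighted mean of Idh2 also passed when ZT4, ZT12 or ZT16 was left out (adjusted p = 0.037, 0.0489 and 0.0417). Genes of slow muscle fibres, which are rich in mitochondria, were also highest at ZT0 and lowest at ZT4. Their median over 7 genes was 0.69, -0.25, 0.13, 0.03, 0.02 and -0.12 at the same ZT in the authors' deposited tables. All 7 of these genes were called positive at ZT0, against 14.8% of genes, and 5 of 7 were called negative at ZT4, against 14.2%. In the weighted mean over ZT 0 of the 7 passed, against 18.9% of all genes higher and 19.3% lower. At an unadjusted p under 0.05 it was 0 of 7 too. Fibre makeup was not measured, and the part of slow fibre genes in the Idh2 values was not tested. The 3 brown adipocyte markers listed, with mean normalized counts of 3.25 to 30.4, also stood high at ZT0 in the authors' deposited table, with a median of 0.86, a highest value of 3.85 and 2 of 3 called positive. Their part was not tested either.

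**Figure D2:**
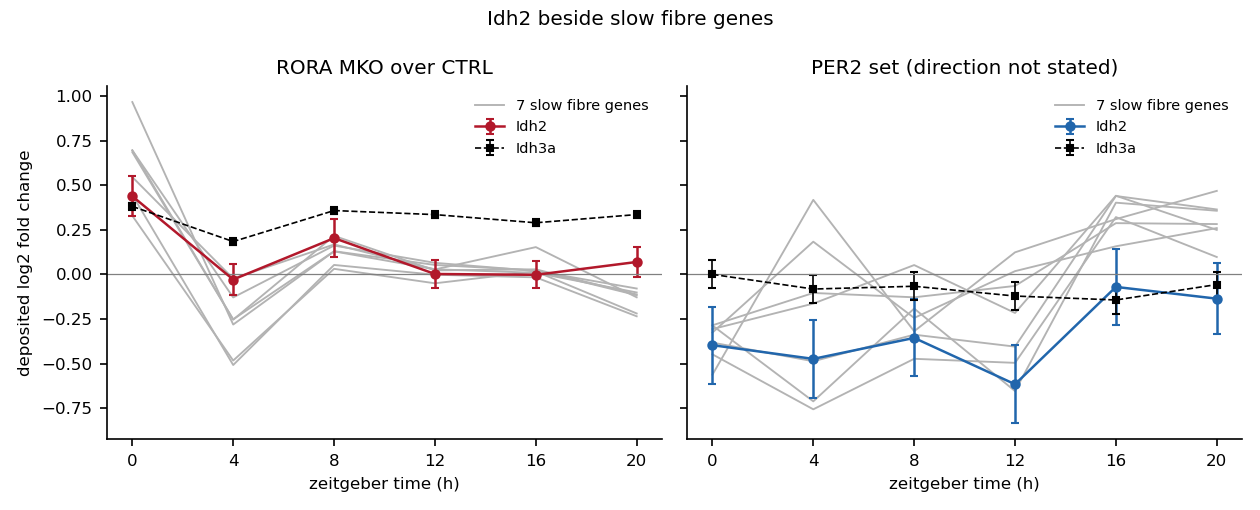
Deposited log2 fold changes of Idh2 (coloured, with error), Idh3a (black) and 7 slow fibre genes (grey) at 6 zeitgeber times, RORA MKO over CTRL on the left and the PER2 set on the right. On the left the slow fibre median is 0.69 at ZT0 and -0.25 at ZT4, beside Idh2 at 0.44 and -0.03.

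Further along the cycle, Ogdh encodes the decarboxylating E1 subunit of the 2-oxoglutarate dehydrogenase complex. Its deposited log2 fold changes were 0.31, 0.11, 0.21, 0.16, 0.10 and 0.18 from ZT0 to ZT20 in the authors' deposited RORA tables, with a mean of 0.18 ± 0.08 (adjusted p = 3.42e-32). Like Cs, Ogdh was highest at ZT0 and lowest at ZT4 and ZT16. Sucla2 encodes the ATP-forming beta subunit of succinyl-CoA ligase. It stood at 0.25, 0.36, 0.34, 0.24, 0.19 and 0.20 in the authors' deposited RORA tables, with a mean of 0.26 ± 0.07 (adjusted p = 4.56e-131). Sucla2 was highest at ZT4, where Cs, Idh3a, Ogdh and Mdh2 had their lowest or second lowest values. Mdh2, the mitochondrial malate dehydrogenase that regenerates oxaloacetate, stood at 0.21, 0.10, 0.22, 0.14, 0.19 and 0.23 in the authors' deposited RORA tables. The Mdh2 mean was 0.18 ± 0.05 (adjusted p = 1.14e-54), again with every ZT above 0.

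Pcx went the other way in RORA MKO. In the authors' deposited tables it stood at -0.52, -0.45, -0.67, -0.69, -0.50 and -0.51 at ZT0, ZT4, ZT8, ZT12, ZT16 and ZT20, with deposited errors of 0.04 to 0.05. Pcx was thus lowest at ZT8 and ZT12, where the MKO level was 0.628 and 0.622 times that of CTRL in the authors' deposited tables. The mean was -0.56 ± 0.10 (adjusted p = 2.79e-177), and 1.68% of genes had a lower mean. Pcx separated from Cs by 0.76 ± 0.14 on the log2 scale and from Idh3a by 0.87 ± 0.15, and it lay below both at 6 of 6 ZT. White adipocytes express Pcx strongly. The median of 9 white adipocyte genes was -0.27, -0.19, 0.15, -0.05, 0.001 and 0.37 from ZT0 to ZT20 in the authors' deposited tables. Of the 9, the authors' deposited tables called 5 negative at ZT0 and 3 at ZT4, against 13.4% and 14.2% of genes, and 7 positive at ZT20, against 16.6%. The part of adipocyte content in the Pcx values was not tested. The 8 endothelial marker genes were all higher in the RORA mean, against 18.9% of all genes, with a median of 0.17, close to the size seen for the cycle enzymes. The part of endothelial content in those values was not tested.

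The size of the RORA effect changed with ZT (Cochran's Q over the 6 ZT, adjusted p under 0.05) for 6 of the 9 members, against 11% of all genes. That share was not matched for the high level of the members. Idh3a had the smallest adjusted p at 8.43e-10, with the lowest value at ZT4, 0.18, and the highest at ZT0, 0.38, in the authors' deposited tables. Sucla2 followed at 3e-05 and Cs at 5.53e-05. Ogdh had an adjusted p of 0.00567, Pcx of 0.0216 and Idh3g of 0.0295. Idh3b (0.503), Idh2 (0.0675) and Mdh2 (0.0599) did not pass. By Q on the z values of the deposited p, 8 members passed, Idh2 and Mdh2 being added, against 18.4% of genes. A 24 h cosine passed for Sucla2 alone, with an amplitude of 0.09 and a peak at ZT 5.72, against 5.42% of all genes. For Pcx the cosine had an adjusted p of 0.065, and for Idh3a of 0.521. As for Idh3a, the median of the slow fibre genes was highest at ZT0, 0.69, and lowest at ZT4, -0.25, in the authors' deposited tables. Other cell type lists moved with ZT as well in the authors' deposited RORA tables. From ZT0 to ZT20 the medians of 6 Schwann cell genes were -0.23, -0.36, 0.25, 0.02, 0.01 and 0.79. Those of 4 red blood cell genes were 0.03, 0.27, 0.39, 0.01, -0.006 and 0.27. The part of slow fibre genes or of these cell types in the changes of the members with ZT was not tested.

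In the PER2 set 3 of the 9 members were called over the 6 ZT. Pcx was called with a positive sign and Idh2 and Idh3b with a negative sign, and the other 6 members did not pass. Of all genes 10.9% were called positive and 10.6% negative. Pcx stood at 0.44, 0.34, 0.42, 0.49, 0.31 and 0.51 from ZT0 to ZT20 in the authors' deposited tables. Calls in the authors' deposited tables were made at ZT0 (adjusted p = 0.0196), ZT8 (0.047), ZT12 (0.00726) and ZT20 (0.00209), where 1.33%, 1.07%, 1.99% and 0.903% of genes were called positive. At ZT4 the authors' deposited adjusted p was 0.0521 and at ZT16 0.434. The Pcx mean was 0.42 ± 0.08 (Stouffer's method, adjusted p = 1.02e-14). White adipocyte genes had medians of 0.21, -0.24, 0.32, -0.67, -0.41 and -0.18 in the authors' deposited PER2 tables, and their part in the Pcx values was not tested.

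Among the cycle enzymes of the PER2 set, Idh2 stood at -0.40, -0.47, -0.36, -0.62, -0.07 and -0.14 from ZT0 to ZT20 in the authors' deposited tables. No single ZT was called for Idh2, but its mean of -0.34 ± 0.21 passed (adjusted p = 0.00115). Without ZT4 and ZT12 the mean was -0.24 and did not pass (adjusted p = 0.144), whereas with a trend on transcript length and GC content removed it was -0.29 and passed (adjusted p = 0.00813). Slow fibre genes had medians of -0.33, -0.16, -0.24, -0.22, 0.32 and 0.28 at these ZT in the authors' deposited tables. In the PER2 mean by Stouffer's method, 10.9% of all genes were called positive and 10.6% negative. Of the 7 slow fibre genes 0 passed, and 0 of 7 at an unadjusted p under 0.05. The part of these genes in the Idh2 value was not tested.

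Idh3b and Idh3g, of the IDH3 complex, were most negative at ZT4 and ZT12. In the authors' deposited tables Idh3b stood at 0.08, -0.28, -0.12, -0.26, -0.08 and -0.08 and was called at ZT4 (adjusted p = 0.0486). Idh3g stood at 0.11, -0.32, -0.10, -0.26, -0.05 and -0.01 in the authors' deposited tables and was also called at ZT4 (adjusted p = 0.0355), where 6.76% of genes were called negative. Over the day Idh3b passed, with a mean of -0.12 ± 0.13 (adjusted p = 0.0146), and Idh3g did not, with a mean of -0.11 ± 0.16 (adjusted p = 0.0738). Mdh2 was also most negative at these ZT, at -0.22 at ZT4 and -0.22 at ZT12 in the authors' deposited tables, and its mean of -0.08 ± 0.13 did not pass (adjusted p = 0.108). When ZT0 was left out, Idh3g (0.0158) and Mdh2 (0.0216) passed with a negative sign, but with the length and GC trend removed their means over all 6 ZT were -0.06 (adjusted p = 0.421) and -0.02 (0.806). Red blood cell genes were likewise most negative there, with medians of -1.35 (ZT4) and -1.01 (ZT12) in the authors' deposited tables. PER2 fold changes also followed transcript length there, with a Spearman correlation of 0.525 at ZT4 and 0.447 at ZT12 across 11739 genes, which are not independent replicates. The part of red blood cell content was not tested. With a trend on length and GC content removed, Idh3b stood at -0.13, Idh3g at -0.13 and Mdh2 at 0.001 at ZT4, and the Idh3b mean no longer passed (adjusted p = 0.142). It did not pass either without ZT4 (0.149), without ZT12 (0.129) or in limma with the spread over ZT as the error (0.19). Pcx with the trend removed ran from 0.31 to 0.55.

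The remaining 4 cycle members of the PER2 set did not pass over the day. Cs ran between -0.10 and 0.02 in the authors' deposited tables and averaged -0.04 ± 0.05 (adjusted p = 0.347). Idh3a ran between -0.14 and 0.0002 in the authors' deposited tables and averaged -0.08 ± 0.05 (adjusted p = 0.0609); with the length and GC trend removed its mean of -0.11 passed (0.00759), as it did when ZT0 was left out (0.0369). Ogdh averaged -0.01 ± 0.06 (adjusted p = 0.944) and ran between -0.05 and 0.08 in the authors' deposited tables. Sucla2 averaged -0.08 ± 0.07 (adjusted p = 0.163; with the trend removed -0.12, 0.0396), with its most negative value, -0.23, at ZT8 in the authors' deposited table. By Cochran's Q 0 of the 9 members changed with ZT in the PER2 set, 0 of 9 at an unadjusted p under 0.05 and 0 by the cosine or by Q on z values. Of all genes 0.0463% passed Q, and 0.0309% passed each of the other 2 tests, and the smallest member value was an adjusted p of 0.615 for Idh3g and Mdh2.

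The RORA and PER2 effects were then set against each other for 11590 genes listed in both, each with its own controls. RORA sizes may be shrunken and have deposited errors, whereas PER2 errors were derived from the likelihood ratio, so the measures are not fully alike. With PER2 values taken as deposited, all 9 members differed (adjusted p under 0.05), 8 with a higher RORA value and 1 with a lower one, where 20.6% and 19.4% of all shared genes did (40% in all). The RORA minus PER2 difference of weighted means was -0.97 for Pcx (adjusted p = 1.36e-70), 0.40 for Idh3a (5.69e-32) and 0.35 for Idh3b (4.63e-16). It was 0.24 for Cs, 0.34 for Sucla2, 0.26 for Mdh2, 0.23 for Idh3g, 0.19 for Ogdh and 0.41 for Idh2. With the PER2 sign turned, 7 of 9 still differed, 6 with a positive and 1 with a negative difference, against 19.3% of genes (9.37% positive, 9.89% negative). Idh3a (0.24), Sucla2 (0.18), Ogdh (0.18) and Cs (0.16) kept a positive difference under either sign, as did Mdh2 and Idh3b, each at 0.11. Idh2 reversed to -0.26 (adjusted p = 0.0339), and Idh3g (0.03, adjusted p = 0.762) and Pcx (-0.13, adjusted p = 0.062) no longer passed. The Pcx comparison therefore turns on the sign that the deposited PER2 tables use.

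The other enzymes of the pathway were read from lists of the same process. Of 10 further cycle genes, 10 were higher in RORA MKO and 0 lower, with a median of 0.19, where 18.9% of all genes were higher and 19.3% lower. Fh1, fumarase, had a mean of 0.24 ± 0.04 (adjusted p = 3.55e-106), and Suclg1, the shared alpha subunit of succinyl-CoA ligase, 0.20 ± 0.05 (6.79e-97). In the PER2 set 7 of the 10 were negative, against 10.6% of genes, and 3 did not pass, with a median of -0.11. They included Sdhd, a membrane anchor of succinate dehydrogenase, at -0.14 ± 0.08 (adjusted p = 0.00272), and Fh1 at -0.11 ± 0.10 (0.00395). When ZT4 and ZT12 were left out, 0 of the 10 passed by Stouffer's method, with 2 negative at an unadjusted p under 0.05 and a median of -0.06. In that setting 1379 of 12952 genes passed in either direction, against 2792 over all 6 ZT. The count of 0 alone therefore does not set these 10 genes apart. Of 6 genes that carry pyruvate into the matrix or to acetyl-CoA, 5 were higher in RORA MKO, against 18.9% of all genes, and 1 did not pass. Among these pyruvate dehydrogenase genes Pdhb averaged 0.15 ± 0.04 (adjusted p = 1.98e-69), Pdhx 0.19 ± 0.07 (8.11e-58) and Dlat 0.18 ± 0.08 (1.58e-42). For PER2, 1 of the 6 passed with a negative sign, against 10.6% of genes, Pdhx at -0.09 ± 0.09 (adjusted p = 0.0164), and Dlat, at -0.06 ± 0.06, did not (adjusted p = 0.114). Without ZT4 and ZT12, 0 of these 6 passed by Stouffer's method, where 1379 of 12952 genes did. Of the 6, 0 were negative at an unadjusted p under 0.05, and the median was -0.01.

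**Figure D3:**
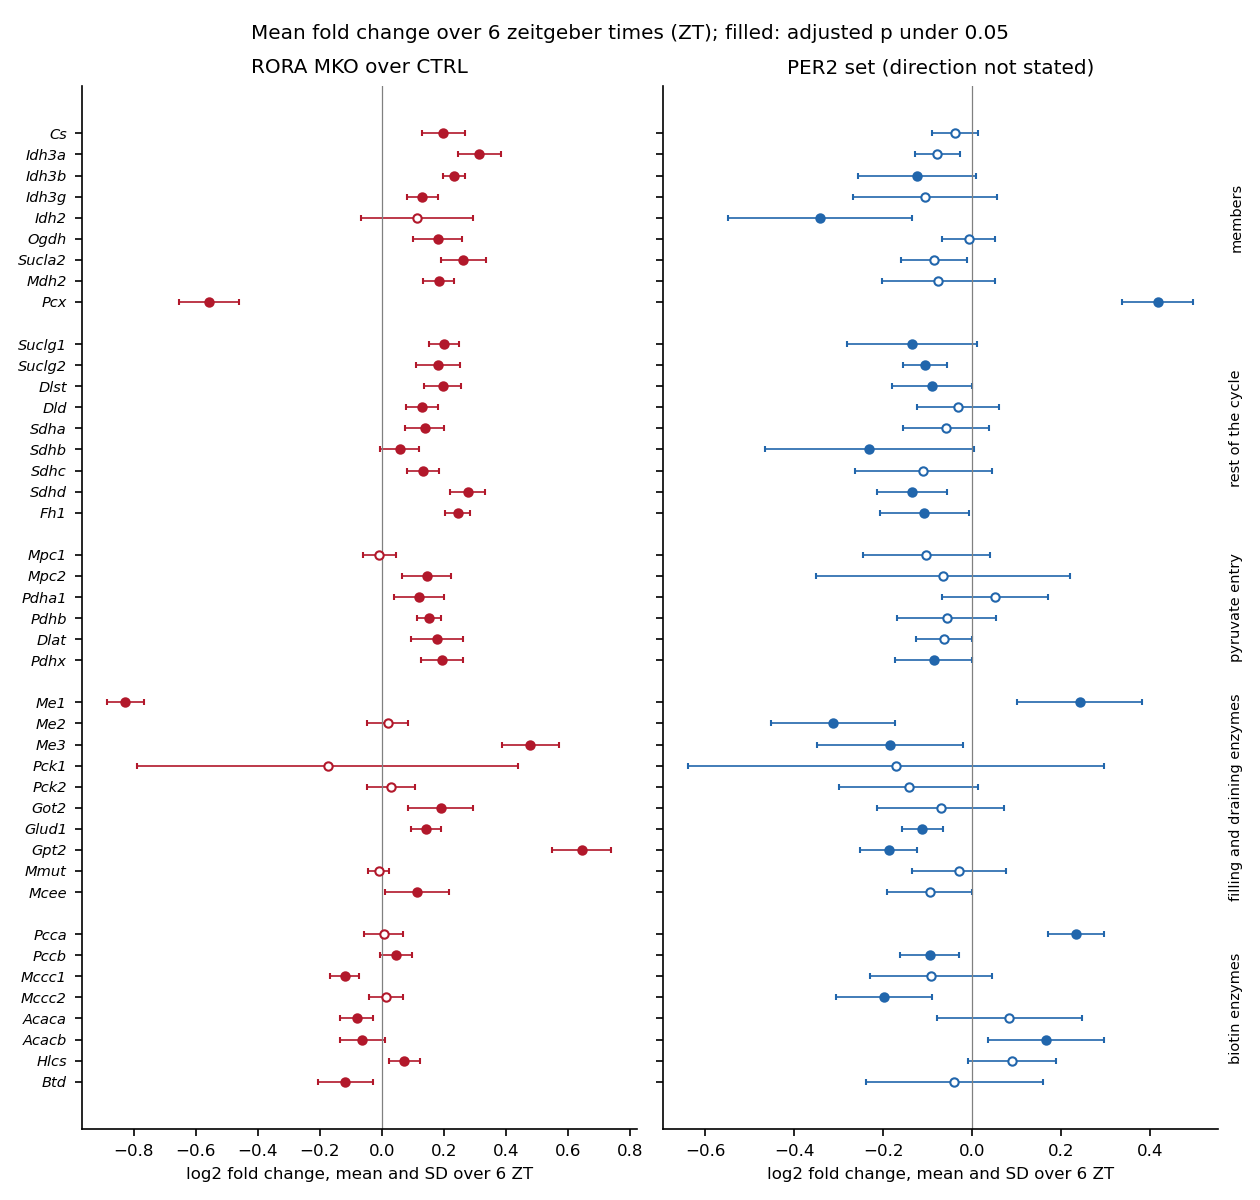
Mean and SD over 6 zeitgeber times of the log2 fold change of the members, 9 genes of the rest of the cycle, pyruvate entry, filling and draining enzymes and biotin enzymes, RORA MKO over CTRL on the left and the PER2 set on the right; filled points had an adjusted p under 0.05. Pcx at -0.56 and Me1 at -0.83 lie below 0 on the left, opposite to the cycle genes, and at 0.42 and 0.24 on the right.

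Of 5 cytosolic counterparts, 2 were higher in RORA MKO, against 18.9% of all genes, and 3 did not pass. For PER2, 0 of 5 passed by Stouffer's method, against 10.9% of genes positive and 10.6% negative. At an unadjusted p under 0.05 it was 0 of 5 too. Got1, the cytosolic aspartate aminotransferase, averaged 0.22 ± 0.15 (adjusted p = 7.02e-18) and Mdh1, the cytosolic malate dehydrogenase, 0.14 ± 0.07 (4.69e-10) in RORA. Acly, ATP citrate lyase, averaged 0.06 ± 0.11 and did not pass (adjusted p = 0.291). In PER2 the smallest adjusted p of this list was 0.191 for Got1, at -0.10 ± 0.12, and 0.243 for Aco1, at 0.06 ± 0.05.

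Other enzymes that fill or drain the cycle did not move as 1 group. In RORA MKO 5 of 10 were higher, 1 was lower and 4 did not pass, against 18.9% of all genes higher and 19.3% lower. Me1, the cytosolic malic enzyme, which makes pyruvate from malate, had a mean of -0.83 ± 0.06 and was called lower at 6 of 6 ZT. Gpt2, the mitochondrial alanine aminotransferase, averaged 0.64 ± 0.10 (adjusted p = 1.18e-177), and Me3, a mitochondrial malic enzyme, 0.48 ± 0.09 (2.54e-170). In PER2 1 of the 10 was positive, 4 were negative and 5 did not pass, against 10.9% of genes positive and 10.6% negative. Me1 averaged 0.24 ± 0.14 (adjusted p = 2.23e-06), and Me2, another mitochondrial malic enzyme, -0.31 ± 0.14 (2.8e-06). Me1 thus had, like Pcx, a negative RORA and a positive PER2 value.

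Pcx needs biotin as a cofactor. Of 8 other genes of biotin enzymes, 2 were higher, 4 lower and 2 not passed in RORA MKO, and their means lay between -0.12 and 0.07. Of all genes 18.9% were higher and 19.3% lower. Mccc1, a subunit of methylcrotonyl-CoA carboxylase, averaged -0.12 ± 0.05 (adjusted p = 2.04e-10), Pccb, a subunit of propionyl-CoA carboxylase, 0.05 ± 0.05 (0.000937), and Acacb, acetyl-CoA carboxylase 2, -0.06 ± 0.07 (0.00444). For PER2, 2 of the 8 were positive, 2 negative and 4 not passed, against 10.9% of genes positive and 10.6% negative. Mccc2, the partner of Mccc1, averaged -0.20 ± 0.11 (adjusted p = 8.93e-07) and Pcca, the partner of Pccb, 0.23 ± 0.06 (4.38e-06).

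Of 9306 genes whose mean normalized count reached 50, those with RORA values most like Pcx over the 6 ZT were Creg1, Prnp, B3galnt2, Jph2 and Rps6ka3, with a root mean square difference of 0.06 to 0.10. Their RORA means were -0.55, -0.54, -0.58, -0.53 and -0.54, beside -0.56 for Pcx. For PER2, B3galnt2 (0.44 ± 0.13) and Rps6ka3 (0.49 ± 0.13) were positive, as Pcx was, while Creg1, Prnp and Jph2 did not pass, at 0.04, -0.01 and -0.001. For Idh3a the 5 genes were Znrf1, Slc25a11, Crat, Ercc3 and Pdk2, with differences of 0.04 to 0.05. Znrf1, the closest, averaged 0.31 ± 0.06 in RORA and -0.03 ± 0.09 in PER2 (Stouffer's method, adjusted p = 0.55). Ercc3 averaged 0.30 ± 0.05 in RORA and -0.23 ± 0.10 in PER2 (adjusted p = 5.29e-09). Slc25a11, the mitochondrial 2-oxoglutarate carrier, averaged 0.34 ± 0.07 in RORA and -0.16 ± 0.14 in PER2 (adjusted p = 0.0183). Crat, carnitine acetyltransferase, averaged 0.28 ± 0.07 in RORA and 0.01 ± 0.11 in PER2 (adjusted p = 0.876). Pdk2, a kinase that inhibits pyruvate dehydrogenase, averaged 0.29 ± 0.06 in RORA and -0.14 ± 0.07 in PER2 (adjusted p = 2.32e-04).

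Levels were compared per kilobase of transcript, from the authors' mean of each set, which is the same in its 6 tables and not split by group. In the RORA set Mdh2 was highest, at 4890 mean normalized counts per kb, followed by Idh3a at 3439 and Cs at 3410. Pcx was lowest, at 247 per kb, behind Idh2 at 1416. In the PER2 set Mdh2 was again highest, at 372 CPM per kb, with Cs at 249 and Pcx at 21.3. The order of Idh3a and Cs differed between the sets, with Idh3a at 213 CPM per kb in PER2. No error per library can be given for these levels, so the order of close neighbours was not tested.

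**Figure D4:**
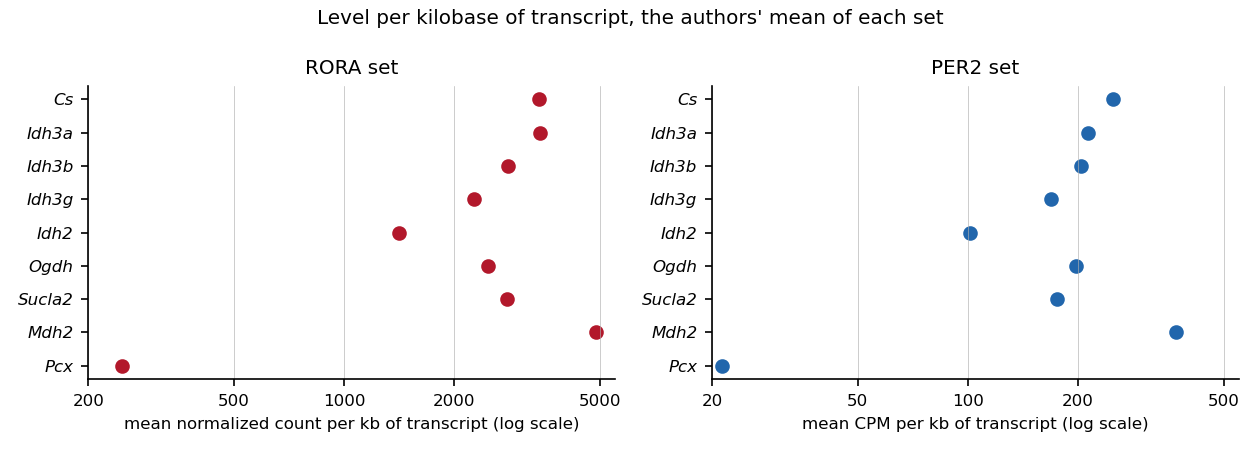
Level per kilobase of transcript of the 9 members on log axes, as the authors' mean normalized count per kb of the RORA set on the left and mean CPM per kb of the PER2 set on the right. Mdh2 is at 4890 on the left and 372 on the right, and Pcx at 247 and 21.3.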

How the data were processed

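RNA was measured in 79 libraries. Stranded poly-A libraries were prepared and run on an Illumina instrument, per the labels. The tools named in the submitters' processing notes are STAR, Trimmomatic, DESeq2, MultiQC, bcl2fastq 2.20.0.422 and R 4.1. Builds mm9 and GRCm39 are named there too, without saying what each served. The read counter, its strand setting and the annotation were not given in the sources used here. Per the file headers, each RORA table gives the authors' signal level (a mean normalized count), their log2 fold change and error, and a deposited p-value, raw and adjusted. RORA log2 fold changes over their errors were 0.795 times the z of the p (median), so sizes may be shrunken. The authors' deposited PER2 tables give log2 fold change, log2 CPM, p-value and the score of a likelihood ratio test. The PER2 error used here is the absolute log2 fold change divided by the root of that score. Values per library were not analysed here, and depth is unknown.

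Over ZT, RORA values were averaged with inverse-variance weights, and PER2 values by Stouffer's method on the deposited p, both with a two-sided normal p. Cochran's Q (5 degrees of freedom) or a 24 h cosine tested change with ZT. The knockouts were compared by the difference of weighted means over its error. All tests ran over all genes with Benjamini-Hochberg adjustment and a threshold of 0.05. The weighted mean, Stouffer's method, Q and the cosine were checked on simulated data. The simulation drew its noise from the errors that the tests use, so it cannot check those errors. The difference between the knockouts was not simulated. GENCODE M21 (GRCm38) gave transcript length, GC content and 893 RORA names, and it matched 14229 RORA identifiers and 12333 PER2 symbols. Alternatives were limma 3.58.1 (R 4.3.3), a stricter threshold, a level filter, other ways to combine ZT, leaving out ZT, and a length and GC trend. SciPy 1.17.1, pandas 2.3.3, NumPy 2.4.6 and Python 3.11.15 were used.

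The members and lists were chosen with earlier results of these data known. Named were all members, Rora and Per2, up to 3 genes per list with the smallest RORA and up to 2 with the smallest PER2 adjusted p, and the 5 genes most like Pcx and the 5 most like Idh3a. Of these, 1 gene is not reported here. Nop56 and Myh4 were named outside this rule, after their values were seen.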

Additional observations from a re-analysis of the deposited data

Results flagged for a closer look

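The size of the RORA effect differed between ZT for 6 members by Cochran's Q, with adjusted p-values of 8.43e-10 for Idh3a, 3e-05 for Sucla2, 5.53e-05 for Cs, 0.00567 for Ogdh, 0.0216 for Pcx and 0.0295 for Idh3g. Each ZT had its own mice, and differences between those mice cannot be told apart from time of day. Of all genes 11% passed this test.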

How the results depend on the processing

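For the members, 227 values under an alternative stayed on the same side of the threshold, 11 passed newly, 13 no longer passed and 1 reversed. The 227 include values that changed sign and passed in neither setting. An example is Ogdh in the PER2 mean, at -0.007 and, with the length and GC trend removed, 0.0009. For change with ZT no direction was compared. For counts, 133 stayed within 1.5 times and 19 moved. In the RORA means no member lost its call under the alternatives run, which were Stouffer's method, limma, random effects, a level filter, a length and GC trend (for RORA added after seeing the data) and leaving out each ZT. Other list counts of PER2 without ZT4 and ZT12 were added after seeing the data.

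The number of genes called in the PER2 mean was 1092 with limma and 1379 without ZT4 and ZT12, against 2792, and members called negative numbered 1 with limma, 0 without ZT4 and ZT12, 5 without ZT0, and 1 without ZT4 or without ZT12, against 2. Leaving out ZT0 brought in Idh3a (adjusted p = 0.0369), Idh3g (0.0158) and Mdh2 (0.0216). At a deposited adjusted p under 0.01, PER2 calls numbered 191 at ZT0, 567 at ZT4, 114 at ZT8, 203 at ZT12 and 127 at ZT20, against 350, 1586, 230, 432 and 197. With it 0 members were called positive at ZT0 or ZT8 (1 each at 0.05) and 0 negative at ZT4 (2 at 0.05). For the RORA change with ZT, 2617 genes passed by Q on z values, which added Idh2 (0.00675) and Mdh2 (0.00953), and 772 by the cosine, with 1 member, against 1565 genes and 6 members. With the PER2 sign turned, 2232 genes differed between the knockouts, against 4640, and Idh2 reversed to -0.26. By construction, limma takes the spread over ZT as error, and leaving out ZT leaves fewer values; otherwise the cause was not tested.

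No paired analysis was possible because the tables hold no values per library and the library numbers are unique within a set. Leaving out single libraries and the alternatives for counts were not run, as the tables hold comparisons and not counts. Depth is unknown, and the PER2 direction is not stated.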
